A study of Mus musculus with 18 samples.

Results

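The autosomal H3K4me3 peaks of mouse embryonic fibroblasts were compared between 1 library of Cre-infected cells and 1 library of GFP-infected cells. Members were all peaks of these lists on chromosomes 1 to 19, whatever their score. This took in 22967 of the 23808 peaks of the GFP list and 21850 of the 22621 peaks of the Cre list, out of 225177 peaks in the 8 histone peak lists of the series. Both groups carried a conditional knockout allele of Rb, which encodes the retinoblastoma tumour suppressor, on a mixed B6;129 background, and neither received the 4F reprogramming construct. The Cre group had been infected with Adeno-Cre, an adenovirus that brings in the recombinase that deletes the allele, and the GFP group with the control virus Adeno-GFP. Cells of both groups were grown for at most 3 further passages to reach the number needed for chromatin immunoprecipitation. How completely Rb was lost, and whether the cultures shared embryos, are not given in the sources used here.

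H3K4me3 is trimethylation of lysine 4 on histone H3, written by the SET1 and MLL complexes and found on the nucleosomes that flank active or poised promoters. The promoter itself is often free of nucleosomes, so the mark can lie on both sides of a start site with a dip between them. A peak caller can then report 1 wide peak or several narrow ones for the same promoter. Peak width, the number of pieces and the gaps between them therefore describe the layout of the mark, apart from whether a region is marked at all.

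With 1 library per condition, differences have no check against replicates and carry no p-value. Intervals are 95% intervals, exact binomial (Clopper-Pearson) for shares and from binomial order statistics for medians. They take each peak as independent and leave out the spread between cultures. The number of reads behind each list is unknown. The authors' score ran from 50 in the GFP list and from 50.02 in the Cre list, with a median of 574 and 898, and piled up at 3100, which 4272 GFP peaks (18.6%) and 5616 Cre peaks (25.7%) shared exactly. Raw scores are given for both lists but are not on a shared scale, so strength was compared by ranks over positions with a peak in both. A higher enrichment, a deeper library and a wider mark cannot be told apart from these lists. Positions are in build NCBIM37, counted from 1. Regions are given by position and not by gene, since no gene models on that build were at hand.

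Most H3K4me3 regions kept their place in the Cre library, and the peaks there were somewhat wider and less often broken into pieces. A GFP peak and a Cre peak that overlapped each other by at least 1 base and no other peak were called matched. Matched peaks numbered 16635, or 72.4% of the GFP list (71.9 to 73.0) and 76.1% of the Cre list (75.6 to 76.7). A further 3315 GFP peaks (14.4%) were pieces that single Cre peaks spanned, whereas 243 GFP peaks (1.06%) each spanned several Cre peaks. No Cre peak overlapped 2424 GFP peaks (10.6%), and no GFP peak overlapped 2750 Cre peaks (12.6%). The remaining 350 GFP and 338 Cre peaks overlapped in longer chains.

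Over whole lists, the median width was 1380 bases (1363 to 1394) for GFP and 1607 bases (1587 to 1627) for Cre peaks, a ratio of 1.16. The difference ran through the distribution. The 10th percentile was 735 bases for GFP and 807 for Cre, and the 90th was 3024 and 3369. Peaks under 1000 bases made up 28.9% of the GFP list (28.3 to 29.5) and 21.2% of the Cre list (20.7 to 21.8). At the other end, 372 GFP peaks and 517 Cre peaks were at least 5000 bases wide. The Cre median was the higher on all 19 autosomes, with a ratio between 1.10 on chromosome 1 and 1.21 on chromosome 19. The narrowest peak measured 298 bases for GFP and 359 bases for Cre, so the smallest width reported moved with the median, and its part in the difference was not tested.

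**Figure D1:**
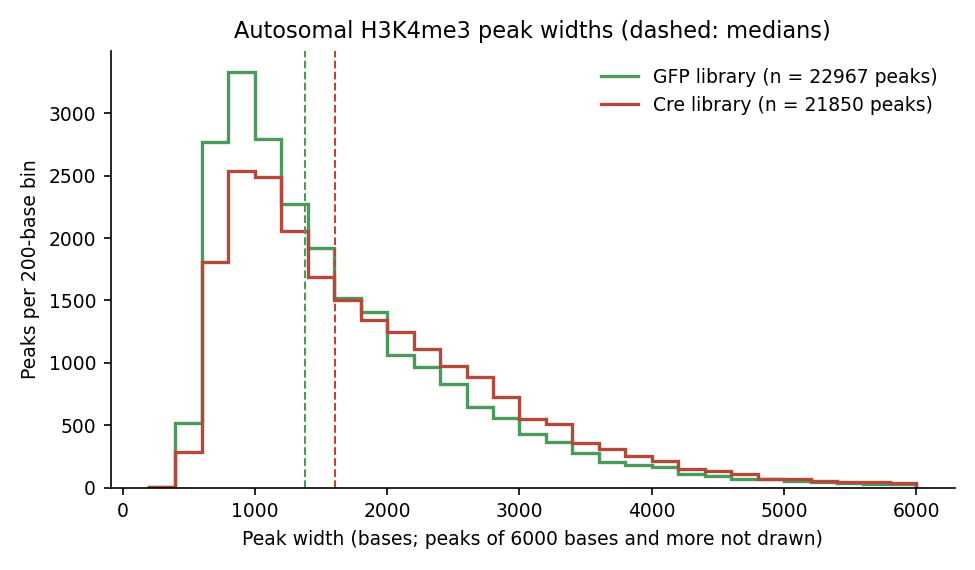
Number of autosomal H3K4me3 peaks (vertical axis) per 200-base bin of peak width (horizontal axis, bases) in the GFP (green) and Cre (red) libraries, with dashed lines at the medians of 1380 and 1607 bases. The GFP list holds more peaks in each bin below 2000 bases and the Cre list more in each bin from 2000 to 3000 bases.

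At matched positions the difference was smaller than between whole lists. The median matched peak was 1515 bases wide in GFP and 1684 in Cre cells, and the median of the Cre to GFP width ratio was 1.07 (1.07 to 1.08). Of the 16635 pairs, 11566 (69.5%) were wider in Cre, 5045 (30.3%) wider in GFP and 24 equal. The median ratio was above 1 on each of the 19 autosomes, from 1.06 on chromosome 16 to 1.10 on chromosome 12. In bases, the median pair gained 114 (109 to 119). The pairs varied far more than that: the middle 50% lay between -37 and 287 bases, and the 5th and 95th percentiles were -362 and 793 bases.

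Along the chromosome, the median added width was alike at left and right edges. Left and right follow the chromosome and not the direction of a gene. The medians therefore cannot show whether single peaks widened evenly or on 1 side. The left edge of the Cre peak lay a median of 49 bases (47 to 52) further out than the GFP edge, and the right edge 50 bases (47 to 52). The centre had no preferred direction, with a median signed shift of 0.50 bases (-1.50 to 2.50), and its median absolute shift was 74.5 bases (73 to 76). Centres lay within 100 bases of each other in 10210 pairs (61.4%) and more than 500 bases apart in 458 (2.75%). A GFP peak sat wholly inside its Cre partner in 7589 pairs (45.6%), and the reverse held in 2038 (12.3%). In 7008 pairs (42.1%) both edges had moved the same way along the chromosome, with a median width ratio of 1.01.

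The gain in bases changed little with the strength of the peak up to the score ceiling, so that the ratio was larger for weak peaks. Pairs were ranked by the mean of their score percentiles in both lists. In the lowest band, up to percentile 10, the median widths were 732 and 851 bases, with a gain of 100 bases and a ratio of 1.14 (1.12 to 1.15). Between percentiles 40 and 50 the gain was 137 bases and the ratio 1.10. From percentile 60 to 70 it was 122 bases with a ratio of 1.06. The band from 70 to 80 stood apart with 183 bases and a ratio of 1.09. Its median score was 2467 in the GFP list and 3100, the pile-up value, in the Cre list. From percentile 80 upward the gain was 60 bases, on medians of 2767 and 2837 bases, and the ratio 1.02.

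**Figure D2:**
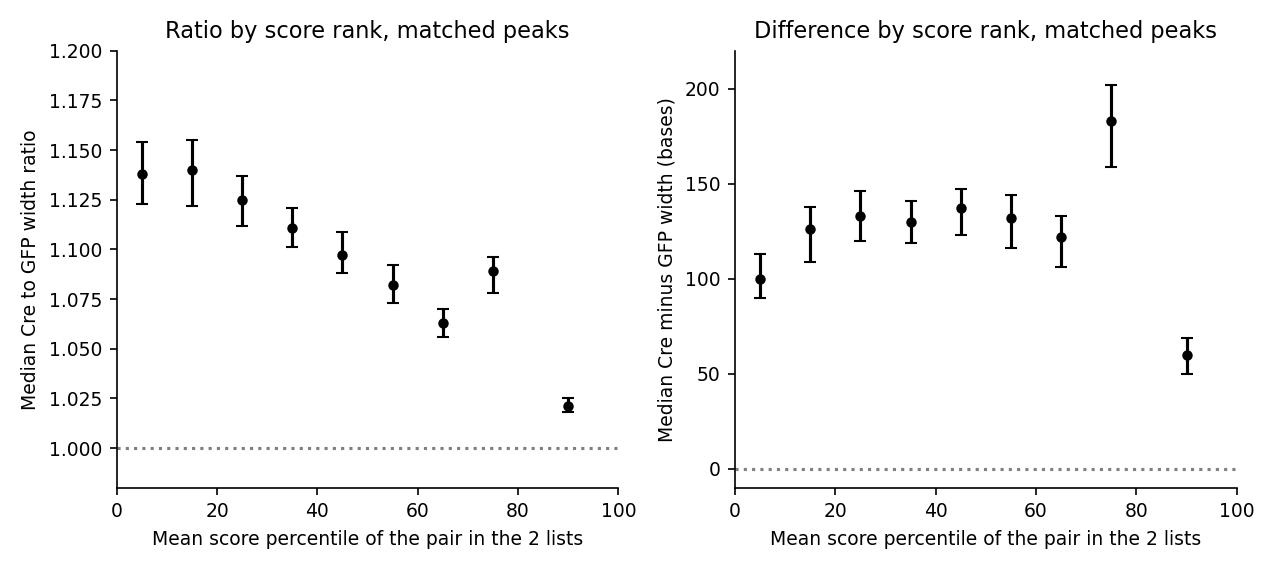
Median Cre to GFP width ratio (left) and median Cre minus GFP width in bases (right) of matched peaks, by the mean score percentile of the pair. Bars are 95% intervals of the median and dotted lines mark no difference. The ratio goes from 1.14 in the weakest band to 1.02 in the strongest.

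Wide peaks hardly differed. Pairs with a geometric mean width of 3000 to 5000 bases had a median ratio of 1.02 (1.01 to 1.02), and the 266 pairs of 5000 bases or more had 1.01, with an interval of 0.994 to 1.02 that includes no difference. Among the 9284 pairs whose rank moved by at most 5 percentile points, the median ratio was 1.06 (1.06 to 1.06). Among the 3599 pairs with scores of at least 3100 in both lists it was 1.02, a gain of 49 bases. Both sets of pairs, whose rank moved little or whose score was at the top of both lists, were wider in Cre cells at the median. The sets share pairs, since pairs at the top of both lists had a median rank shift of -3.20 points. Neither set holds enrichment or read depth constant, because ranks are taken within each list and scores pile up at 3100.

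Differences of at least 1.5-fold were uncommon. The Cre peak was that much wider in 1272 of 16635 pairs, which is 7.65% (7.25 to 8.06), and the GFP peak in 256, which is 1.54% (1.36 to 1.74). Pairs in the first set were narrow in GFP cells, with a median of 911.5 bases against 1710 bases in Cre cells, and pairs in the second went from 1904 to 983 bases. With a score of at least 100 required in both lists, the second set was 149 pairs.

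Named regions were the 5 at each extreme among the 14252 pairs with scores of at least 100 in both lists. The pair with the highest ratio lay on chromosome 10, from 80598202 to 80598831 in the GFP list and from 80596893 to 80600017 in the Cre list. Its width was 630 bases in GFP and 3125 bases in Cre cells, 4.96-fold. The next lay on chromosome 8, with 1573 bases in GFP cells and, from 95350038 to 95356418, 6381 bases in Cre cells. The third, on chromosome 5, had 1057 bases from 105722109 to 105723165 in GFP cells and 4202 bases from 105719279 to 105723480 in Cre cells. All 5 pairs with the highest ratios overlapped an H3Ac peak in both libraries and no H3K27me3 or H3K9me3 peak in either. Their H3Ac scores were 93.8, 287, 417, 285 and 636 for GFP and 268, 2179, 2103, 2363 and 3100 for Cre. H3Ac overlapped 87.3% of all matched pairs in GFP and 89.9% in Cre cells, and 71.5% and 82.7% of the 1272 Cre-wider pairs. H3K27me3 overlapped 10.9% and 11.6% of all matched pairs and 20.05% and 19.3% of the 1272, so the 5 do not stand for that set.

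The pairs with the lowest ratios had a more mixed surrounding. On chromosome 11 a GFP peak of 2551 bases from 96148421 to 96150971 faced a Cre peak of 811 bases from 96148508 to 96149318, so that the GFP peak was 3.15-fold wider. H3K27me3 peaks overlapped this place in both libraries, with scores of 1820 for GFP and 2888 for Cre, and H3Ac and H3K9me3 overlapped it in the GFP library only. The second, on chromosome 13, measured 3654 bases from 49412339 to 49415992 in GFP and 1279 bases from 49414333 to 49415611 in Cre cells, and carried H3Ac without H3K27me3 or H3K9me3. The third, on chromosome 4, measured 3051 bases from 145590865 to 145593915 in GFP and 1097 bases in Cre cells and overlapped H3K9me3 and H3Ac in both libraries. The fourth, on chromosome 6, measured 2802 bases from 34559065 to 34561866 in GFP and 1014 bases in Cre cells, with H3Ac in both libraries. H3Ac scores (GFP, then Cre) were 2166 and 185.5 for the second, 66.9 and 171.5 for the third, 3100 and 885 for the fourth. The fifth, on chromosome 2, with 2505 bases from 59156262 to 59158766 in GFP and 931 bases in Cre cells, overlapped H3K9me3 in both libraries and H3Ac in neither.

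Score ranks were close in the 2 lists. The median absolute change in percentile was 4.05 points, and 95% of pairs moved by 20.1 points or less. The pile-up of scores is part of this closeness. In 3599 pairs (21.6%) both scores were at least 3100, where ties hide most of the order. The median signed shift of -2.61 points has no direction of its own, because ranks over the same pairs sum to the same total in both lists and more Cre than GFP peaks tied at 3100. Ranks were at least 20 points higher in Cre cells at 550 pairs (3.31%) and at least 20 points lower at 293 (1.76%). The first set had a median width of 1518 bases in GFP and 2186 bases in Cre cells, and the second 1925 and 1235. Rank and width moved together in these lists: 263 pairs were both 20 points higher and 1.5-fold wider in Cre, 128 were both lower and 1.5-fold narrower, 1 was higher and narrower, and 0 were lower and wider.

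The largest rise in rank was that of the chromosome 5 region from 105722109 to 105723165 described above. It scored 105 in the GFP list, at percentile 12.9 of the matched peaks, and 3100 in the Cre list, at percentile 85.2. The second lay on chromosome 6, where a GFP peak of 1143 bases from 127396298 to 127397440 with a score of 201 faced a Cre peak of 4416 bases from 127396091 to 127400506 that scored 3100. On chromosome 15 the GFP peak from 76072440 to 76074294 scored 527 and its Cre partner 3199, a rise of 57.0 points with a width ratio of 1.42. That rise rests on the order of scores above 3100: with scores of 3100 and more as 1 tie, an alternative chosen after seeing the data, it was 43.1 points, at place 19, while the other 4 regions took the first 4 places. The remaining 2 of the 5 lay on chromosome 14 from 59982985 to 59984695, with a rise of 54.3 points, and on chromosome 2 from 84613612 to 84615232, with 52.9.

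In the other direction, the GFP peak on chromosome 18 from 39891367 to 39895459 scored 3100 and spanned 4093 bases, and its Cre partner scored 316 and spanned 2131 bases, so that its rank fell by 61.95 percentile points. On chromosome 19 the GFP peak from 36309629 to 36312940 scored 3100 and the Cre peak 434, with 3312 and 2050 bases. The chromosome 13 region from 49412339 to 49415992 was at percentile 74.6 in the GFP list and 26.2 in the Cre list. These 3 regions overlapped H3Ac in both libraries and neither H3K27me3 nor H3K9me3. In the same order, their H3Ac scores were 2117, 2684 and 2166 in the GFP library. In the Cre library they were 176.7, 181.1 and 185.5, on scales that are not shared. The fourth lay on chromosome 1 from 58782745 to 58786036, with scores of 934 and 116. It also carried H3Ac in both libraries, with scores of 2077 for GFP and 402 for Cre. The fifth, on chromosome 11 from 96071485 to 96074817, scored 845 and 112. It overlapped H3K27me3 and H3K9me3 in both libraries and H3Ac in neither.

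H3K4me3 peaks that lay in pieces in GFP cells were often a single peak in Cre cells, and the reverse was less frequent. There were 1632 Cre peaks that each spanned 2 or more GFP peaks, and 243 GFP peaks that each spanned 2 or more Cre peaks, a ratio of 6.72 (5.87 to 7.72). Joins outnumbered splits on all 19 autosomes, by 4.77 to 1 on chromosome 13 up to 11.8 to 1 on chromosome 15. Nearly all were pairs: 1585 joins took in 2 GFP peaks, 43 took in 3 and 4 took in 4, and 235 of the splits had 2 pieces. The counts depend on how closely spaced peaks are treated. With peaks within 1000 bases merged in each list first, 210 joins and 37 splits remained, and with a minimum score of 100 there were 1246 and 158.

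Joined regions were wide and strong. The spanning Cre peak had a median width of 3029 bases, the stretch from the first to the last GFP piece one of 2953 bases, and the median ratio was 1.03. In 53.2% of joins the spanning peak scored 3100 or more. The weakest GFP piece of a join had a median score of 246 and the strongest 2046. At splits the spanning GFP peak had a median width of 2992 bases. The stretch from the first to the last Cre piece, gaps included, had one of 3093. Joins moved 3315 GFP peaks with a median width of 1277 bases into 1632 Cre peaks. The pieces covered 5.09 Mb and the peaks that spanned them 5.56 Mb, which takes in the gaps. Of the 3.05 Mb by which the Cre peaks covered more sequence than the GFP peaks (41.95 against 38.9 Mb), matched peaks held 2.36 Mb, joins 0.471 Mb and peaks in 1 list only 0.214 Mb.

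The 4 joins of 4 GFP peaks lay on chromosomes 4, 11 and 15. On chromosome 4 a Cre peak of 5024 bases from 28738736 to 28743759 spanned GFP pieces of 1035, 515, 1307 and 607 bases. The gaps between them were 86, 465 and 272 bases. On chromosome 11 a Cre peak of 7486 bases from 120090300 to 120097785 spanned GFP pieces with scores of 2563, 491, 2300 and 1317. Its last gap, of 784 bases, was the widest of the 4 regions. The chromosome 15 region, from 35222522 to 35229443, held 3 weak GFP pieces with scores of 154, 146.6 and 104 beside a strong one of 2447, and carried H3K27me3 and H3Ac in both libraries. The other chromosome 11 region, from 75343553 to 75347333, had GFP gaps of 6, 123 and 17 bases. Each of these 4 regions overlapped H3Ac in both libraries.

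The split with the most pieces was also the widest GFP peak, of 18773 bases on chromosome 4 from 146542587 to 146561359. It scored only 93.1 in the GFP list. The Cre list held 4 peaks there, of 2390, 2251, 8779 and 1675 bases, which together covered 80.4% of it, and the widest of them scored 1247. H3K9me3 peaks overlapped the region in both libraries and H3Ac peaks in neither. Another split lay on the same chromosome from 145723031 to 145735800, where a GFP peak of 12770 bases faced Cre peaks of 3257, 6307 and 2711 bases, with H3K9me3 in the Cre library only. Of the other 3 named splits, on chromosomes 3, 6 and 13, each had a GFP score of 3100 and H3Ac in both libraries. The chromosome 13 one ran from 21900015 to 21906319, with Cre pieces of 2159, 2229 and 1493 bases.

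**Figure D3:**
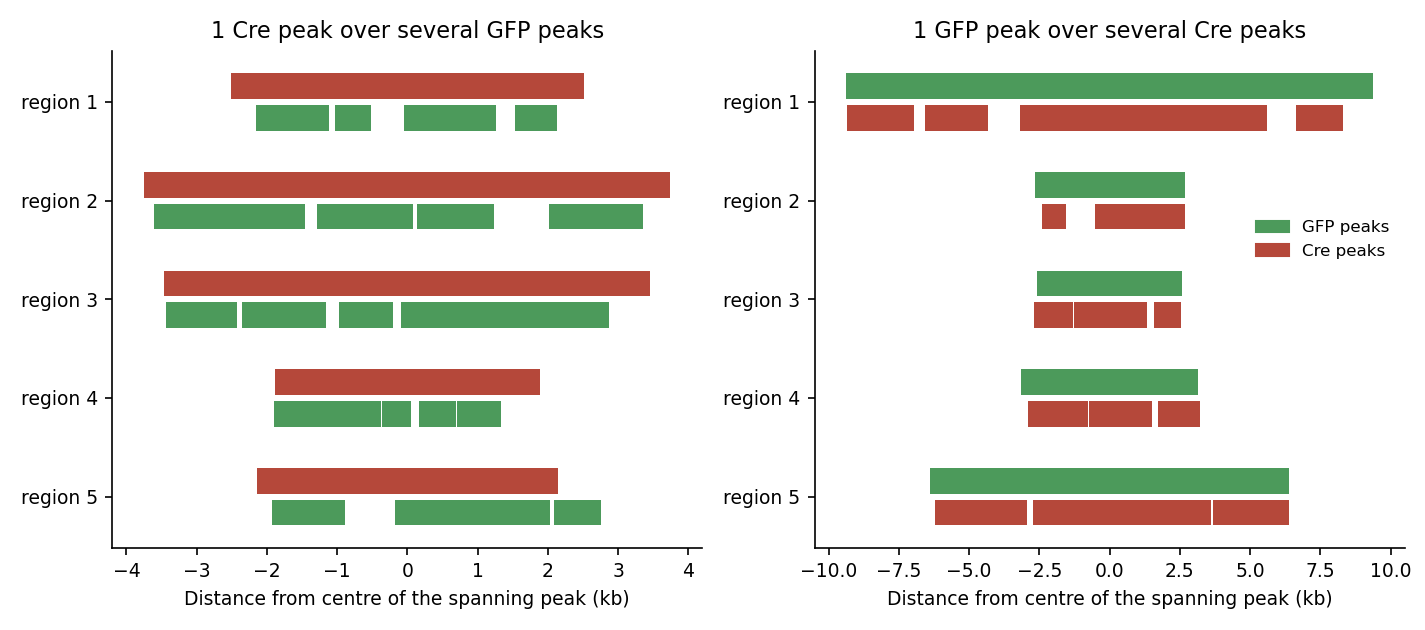
The 5 joins (left) and 5 splits (right) with the most pieces, drawn to scale as distance from the centre of the spanning peak in kb; Cre peaks are red and GFP peaks green. Left regions 1 to 4 show 4 GFP pieces under 1 Cre peak, and right region 1 shows the GFP peak of 18773 bases over 4 Cre peaks. Gaps of under about 50 bases are too short to show as spaces.

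Short gaps were the ones that closed. In the GFP list 5339 of 22948 neighbouring peaks (23.3%) lay less than 1000 bases apart, and in the Cre list 4501 of 21831 (20.6%). A single Cre peak spanned 1854 of these GFP gaps, or 34.7% (33.4 to 36.0), and a single GFP peak spanned 412 of the Cre gaps, or 9.15% (8.33 to 10.0). For GFP gaps under 50 bases the share spanned was 83.7% (80.04 to 86.9). It was 61.4% for gaps from 100 to under 150 bases, 35.3% from 200 to under 300, 8.54% from 400 to under 600 and 4.07% from 600 to under 1000. The matching shares of Cre gaps were 31.8%, 11.2%, 4.69%, 1.44% and 0.843%. Whatever the gap length, the share was higher for GFP gaps. The median gap was 128 bases (121 to 136) at joins and 69.5 bases (56 to 84) at splits.

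**Figure D4:**
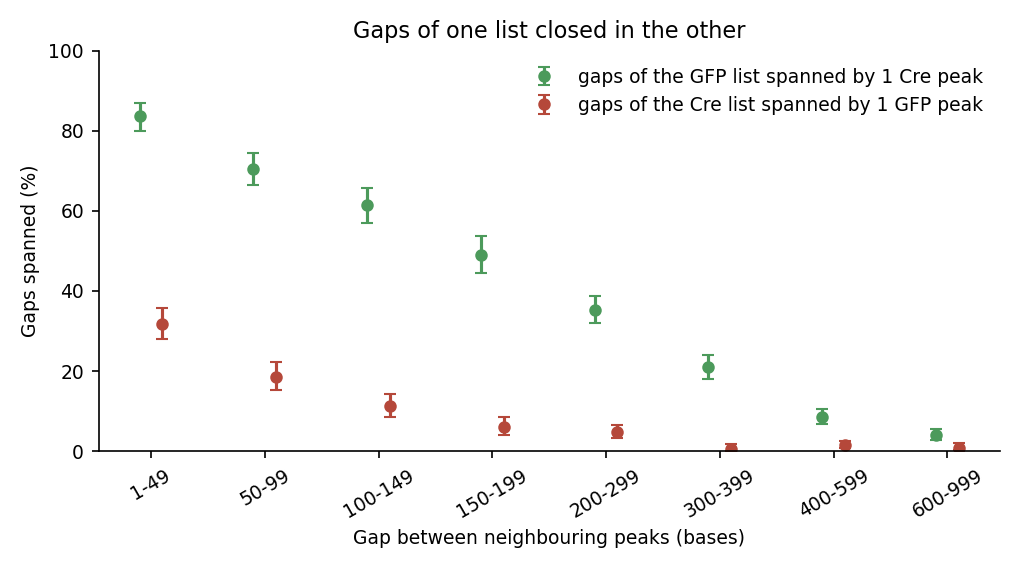
Share of the gaps in one H3K4me3 list that a single peak of the other list spanned (vertical axis, percent) by gap length (horizontal axis, bases); bars are exact 95% intervals. The share of GFP gaps spanned goes from 83.7% below 50 bases to 4.07% from 600 to under 1000 bases, above that of Cre gaps in every bin.

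Whether a GFP gap closed hardly depended on the score of the peaks beside it. Where the weaker flank scored 50 to 100 the share was 34.2% (31.7 to 36.9), for 100 to 300 it was 33.6%, for 300 to 1000 it was 34.5%, and from 1000 upward 37.95% (34.8 to 41.2). Of the GFP gaps that were not spanned, 3130 had a Cre peak at both flanks and 355 (6.65% of all 5339) had lost a flank. Among Cre gaps, 814 of 4501 (18.1%) had a flank without any GFP counterpart.

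Most gaps found in both lists were narrower in Cre cells, apart from the shortest ones. Matched peaks that were direct neighbours in both lists formed 11982 couples, of which 2924 lay less than 1000 bases apart in the GFP list. Their median gap was 403.5 bases (394 to 415) in GFP and 247.5 bases (235 to 261) in Cre cells. The gap was narrower in Cre cells in 2417 couples (82.7%) and wider in 500. The median change was -110.5 bases, and the median centre-to-centre distance was 1864 bases in GFP and 1837 bases in Cre cells, a median change of -13.5 bases. Single couples moved more than that, with a median absolute change of the centre distance of 106.5 bases. The change differed with the length of the gap in the GFP list, by which the couples were sorted. A short gap can narrow only by its own length before it closes and leaves the set. The sorting thus sets part of this trend, and a dependence on length was not tested. The 52 GFP gaps of under 50 bases were 23 bases wider in Cre cells at the median (12 to 41), and the 116 from 50 to under 100 bases changed by 0 (-20 to 22). Gaps from 200 to under 300 bases changed by -90.5 (-103 to -79) and those from 600 to under 1000 by -201 (-223 to -186). These couples leave out every gap that a Cre peak spanned, and such gaps were mostly short, so the values hold only for gaps present in both lists. Couples at least 10 kb apart had a change of the gap of the same size, -114.5 bases (-121 to -108), and a change of the centre distance of 6.5 bases.

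Acetylation was read in separate libraries, and it too ran across some of the gaps. At GFP H3K4me3 gaps that a Cre peak spanned, a single H3Ac peak reached across 17.0% (15.4 to 18.8) in GFP and 23.7% (21.8 to 25.7) in Cre cells. At gaps that no Cre H3K4me3 peak spanned the shares were 4.68% and 4.25%. Spanned gaps were shorter, with a median of 124 against 399 bases, so gaps of like length were compared. For gaps from 100 to under 200 bases, H3Ac spanned 13.4% (10.6 to 16.6) in GFP and 23.5% (19.9 to 27.3) in Cre cells where H3K4me3 was joined. Where it was not, H3Ac spanned 4.62% and 4.85%. For gaps from 200 to under 400 bases the shares were 7.99% and 8.68% where H3K4me3 was joined and 3.70% and 3.05% where it was not. H3K27me3 spanned 1.67% and 1.89% of the joined gaps of all lengths and 1.52% and 1.81% of the others, but this differed by length. For gaps under 100 bases it spanned 1.58% and 2.10% where H3K4me3 was joined and 5.22% and 5.65% where it was not. From 400 to under 1000 bases the shares were 6.78% in both libraries for joined gaps and 1.21% and 1.84% for the others. H3K9me3 spanned 1.18% and 1.05% of the joined gaps under 100 bases and 8.70% and 2.17% of the others.

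Other marks differed between the sets of pairs. H3Ac overlapped 87.3% of all matched regions in GFP and 89.9% in Cre cells, H3K27me3 10.9% and 11.6%, and H3K9me3 2.17% and 1.83%. Of the 256 pairs at least 1.5-fold wider in GFP, 46.9% (40.6 to 53.2) overlapped H3Ac in the GFP library, 39.8% (33.8 to 46.1) H3K27me3 and 27.7% (22.3 to 33.7) H3K9me3. These pairs had low scores, with medians of 268 and 92.8. Among all matched pairs below percentile 50 by mean score, the GFP library shares were 75.1% for H3Ac, 19.1% for H3K27me3 and 3.93% for H3K9me3, against 38.7%, 45.5% and 32.0% for the 222 GFP-wider pairs in that range. The 222 regions were also wider, with a median of 1816 bases against 1252 for all in that range. A wider region can meet more peaks, and the sets were not matched on width. The Cre library gave 33.8%, 46.4% and 18.02% for the same 222 pairs. Its H3K9me3 list held 3516 autosomal peaks against 9574 in the GFP library. The 34 GFP-wider pairs from percentile 50 upward overlapped H3Ac in every case and H3K9me3 in 0 cases, which allows a share of up to 10.3%. Among all matched pairs in that range 99.5% overlapped H3Ac and 0.409% H3K9me3 in the GFP library.

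Pairs at least 1.5-fold wider in Cre also overlapped H3Ac less and H3K27me3 more often than all matched pairs. H3Ac overlapped 71.5% of them in GFP and 82.7% in Cre cells, H3K27me3 20.05% and 19.3%, and H3K9me3 2.12% and 2.28%. Their median scores were 143 for GFP and 418 for Cre peaks, against 798 and 1162 for all matched pairs. For the 996 of them below percentile 50 the GFP library shares were 63.7% for H3Ac and 24.3% (21.7 to 27.1) for H3K27me3, against 75.1% and 19.1% of all matched pairs in that range. Here too the regions were wider, with medians of 1526 and 1252 bases. Regions that rose by 20 points in rank overlapped H3Ac in 85.3% (82.0 to 88.1) in GFP and 96.2% (94.2 to 97.6) in Cre cells, and those that fell in 61.1% and 56.3%. Of the fallen regions, 33.1% overlapped H3K27me3 in GFP and 36.9% in Cre cells, and this differed by strength. The 215 below percentile 50 overlapped H3K27me3 in 44.2% (37.4 to 51.1) and H3Ac in 47.0% in the GFP library. The 78 from percentile 50 upward did so in 2.56% (0.312 to 8.96) and 100%. Joined regions carried H3Ac in 94.1% and 95.7% of cases. The shares were 87.3% and 89.9% for all matched regions, and 99.5% and 99.7% for those from percentile 50 upward. H3K9me3 overlapped 1.41% of joined and 9.47% (6.1 to 13.9) of split regions in the GFP library, against 2.17% of all matched regions. Joined and split regions were wider, with medians of 3149 and 3212 bases against 1761, and were not sorted by strength.

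**Figure D5:**
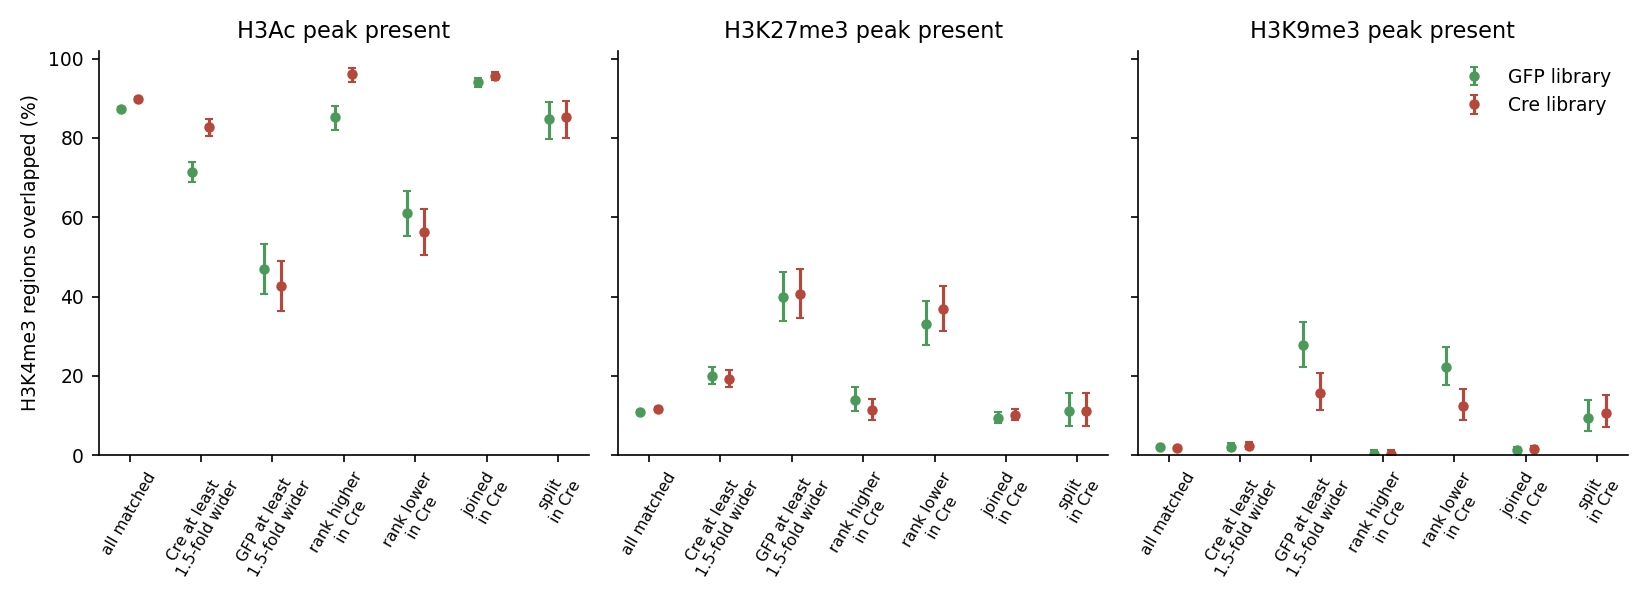
Share of H3K4me3 regions (vertical axis, percent) that overlapped a peak of H3Ac (left), H3K27me3 (middle) or H3K9me3 (right) in the GFP (green) and Cre (red) libraries, by set of regions; bars are exact 95% intervals. Regions wider in GFP or lower in rank in Cre show less H3Ac and more H3K27me3 and H3K9me3 than all matched regions.

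H3Ac could be measured at the same place for part of the matched H3K4me3 peaks, and over that whole set it did not widen with H3K4me3. At 11384 matched H3K4me3 positions a single matched H3Ac peak lay over the peak. Over all of them the median width ratio was 0.996 (0.992 to 0.9995) for H3Ac and 1.08 for H3K4me3. At the 10586 where the H3K4me3 widths differed by less than 1.5-fold it was 0.991 (0.988 to 0.995) for H3Ac and 1.07 for H3K4me3. In the sets picked for a large H3K4me3 difference the H3Ac ratio lay on the same side of 1 as that of H3K4me3. The H3Ac ratio was 1.13 (1.10 to 1.15) at the 731 positions where H3K4me3 was at least 1.5-fold wider in Cre, where the H3K4me3 ratio was 1.68. It was 0.783 (0.748 to 0.855) at the 67 where H3K4me3 was that much wider in GFP, with an H3K4me3 ratio of 0.605. The median rank shift over all positions was 1.15 points for H3Ac and -2.46 for H3K4me3. Tied scores enter these medians, so their signs are not compared. At the 10586 positions the H3Ac median and both ends of its interval were the same value, 1.13 points. The median H3Ac rank shift was 17.4 points (13.8 to 19.3) at the 351 positions where H3K4me3 had risen by 20 points. It was -12.8 points (-15.6 to -7.69) at the 123 where H3K4me3 had fallen by as much. Which input library served each mark was not given in the sources used here, so these values may share one.

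The other marks gave different width ratios over their own matched peaks. The median ratio was 0.962 (0.960 to 0.965) for H3Ac, 1.00 (0.997 to 1.00) for H3K27me3 and 0.683 (0.665 to 0.708) for H3K9me3. For H3Ac 4.51% of 29733 pairs were at least 1.5-fold wider in Cre and 11.5% in GFP. Joins per split were 0.887 for H3Ac, 1.27 for H3K27me3 and 0.271 for H3K9me3. The lists differed in size: H3Ac had 47904 GFP and 41827 Cre peaks, H3K27me3 34064 and 29328, and H3K9me3 9574 and 3516. Only 1338 H3K9me3 pairs were matched, and what list size adds to these values was not tested. The narrowest H3Ac peak measured 302 bases for GFP and 360 bases for Cre peaks, and what the smallest reported width adds to any of these ratios was not tested. With 1 library per mark and condition, the differences between marks were not tested.

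Peaks found in 1 list were narrow and weak in both. Their median width was 867.5 bases in each list, and 72.1% of the 2424 GFP-only peaks and 64.0% of the 2750 Cre-only peaks scored below 100. They differed in where they lay. Of the Cre-only peaks 674, or 24.5% (22.9 to 26.2), were less than 1000 bases from a GFP peak, and of the GFP-only peaks 283, or 11.7% (10.4 to 13.0), were that close to a Cre peak. The median distance to the nearest peak of the other list was 13074 bases for Cre-only and 19550 bases for GFP-only peaks.

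Each of the 5 widest peaks of either list overlapped at least 1 peak of the other, which covered between 71.2% and all of its length. On chromosome 7 a GFP peak of 13800 bases from 13423476 to 13437275 overlapped a Cre peak of 17857 bases from 13418979 to 13436835, the widest of its list, and H3K9me3 peaks of both libraries. The Cre peak also overlapped H3Ac peaks, with scores of 2596 for GFP and 2499 for Cre, which the GFP peak did not reach. On chromosome 13 the GFP peak of 13664 bases from 16102704 to 16116367 held the Cre peak of 12288 bases whole. On chromosome 3 a Cre peak of 13114 bases from 99055409 to 99068522 was 97.7% covered by 1 GFP peak of 12816 bases. The chromosome 3 and 13 regions carried H3Ac in both libraries, with a score of 3100 in each, and neither H3K27me3 nor H3K9me3.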

How the data were processed

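Peaks were those the authors deposited, 1 list per library. The submitters' processing notes name BWA, SAMtools 0.1.18, bedtools 2.16.2, MACS 1.4.1 and build NCBIM37 among the tools, without their roles, and peak names carry the name of MACS. The authors' deposited score comes without a header or a stated unit. The control library, duplicate handling and threshold are not given in the sources used here, and the labels number the GFP histone input replicate 1 and the Cre input replicate 3.

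Peaks of chromosomes 1 to 19 were matched by overlap of at least 1 base. A join or split is a peak over 2 or more peaks of the other list that touch no further peak. Score percentiles were taken over matched peaks, with ties at their mean rank. The members and comparisons were chosen with earlier results of these data known. The regions named are the 5 at each extreme of width ratio and rank shift with scores of at least 100 in both lists, the 5 joins and splits with the most pieces and the 5 widest peaks per list, of which the text gives the leading ones. On simulated data made from the 22967 GFP peaks, 574 of 574 joins and 200 of 200 splits were recovered. There the edges of unsplit peaks moved out by 30 bases without noise, and splits were placed in wide, isolated peaks. Full recovery therefore checks the counting code and not how real lists behave. Alternatives were a minimum score of 100, overlap of at least 50%, merging within 1000 bases and equal numbers of top-scoring peaks. Treating scores of 3100 and more as 1 tie, and leaving out chromosome 4, were added after the data were seen. Genes were not named, since the gene tables used belong to a different assembly. Python 3.11.15, NumPy 2.4.6, pandas 2.3.3, SciPy 1.17.1 and matplotlib 3.10.9 were used.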

Additional observations from a re-analysis of the deposited data

Results flagged for a closer look

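Matched peaks of H3K4me3 were wider in the Cre library, with a median ratio of 1.07, and matched H3Ac peaks were narrower, with 0.962. Joins outnumbered splits for H3K4me3, 6.72 to 1, and not for H3Ac, 0.887 to 1. Both are picked out because the directions are opposite under the same contrast. Each value comes from the mark's own peaks, so the places differ. At the 11384 positions measured for both marks, the width ratio was 1.08 for H3K4me3 and 0.996 (0.992 to 0.9995) for H3Ac. Where H3K4me3 was at least 1.5-fold wider in Cre the H3Ac ratio was 1.13, and where it was that much wider in GFP it was 0.783. Each mark has 1 library per condition, so the difference was not tested.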

How the results depend on the processing

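No paired analysis was possible because each condition has 1 library and no test was run. Across the 54 alternative values computed for the comparisons, 0 changed direction, 41 stayed within 1.5 times (counts) or within the interval of the median, and 13 moved further. Except for merging, the cause of these moves was not tested. A single count, gap length or absolute centre shift has no direction of its own, so the lack of reversals bears on the width ratios only. The ratio of list medians, 1.16, was 1.135 at a minimum score of 100, 1.119 with peaks within 1000 bases merged and 1.121 with equal numbers of top-scoring peaks. The matched width ratio, 1.07, was 1.068, 1.054 and, with overlap of at least 50%, 1.082. The median centre shift, 74.5 bases, was 77.5 at a minimum score of 100, 80 with 50% overlap and 89 after merging. Pairs at least 1.5-fold wider in GFP fell from 256 to 149 at a minimum score of 100, and splits from 243 to 158. Merging left 210 joins and 37 splits, since it closes gaps of up to 1000 bases in both lists, and gave no gap between pieces. With scores of 3100 and more as 1 tie, 443 pairs ranked at least 20 points higher in Cre and 281 lower, against 550 and 293. Read depth is unknown and limits every comparison of width.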

Other observations

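The highest score in both H3K4me3 lists, 3233.06, equals 10 times the negative log10 of the smallest positive number that double precision can hold, and 8 GFP and 10 Cre peaks had it. Scores above 3100 were rare, with 197 GFP and 204 Cre peaks, beside 4272 and 5616 at exactly 3100. The single pair that ranked at least 20 points higher in Cre while being 1.5-fold narrower there had scores of 3091 and 3209.

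Without chromosome 4, 26.8% of the GFP-wider pairs (21.3 to 32.9) overlapped H3K9me3 in the GFP library, against 2.05% of all matched pairs.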
